A study of Mus musculus with 109 samples.

Results

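The blood-retina barrier genes are 10 genes whose products build, mark or regulate the barrier between the blood and the retina, out of 37315 genes counted in the mouse retina. They were chosen by name, as genes of tight junctions, of barrier transport and of endothelial identity and growth. Cldn5, Ocln and Tjp1 encode junction proteins, Cdh5 and Pecam1 encode endothelial adhesion proteins, Mfsd2a encodes a lipid transporter, and Plvap marks leaky vessels. Vegfa, its receptor Kdr and Angpt2 encode signals that act on vessels. All 10 passed the filter on low counts in every comparison.

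Retinal capillaries keep plasma out of the neural tissue because their endothelial cells are sealed by tight junctions, carry few transport vesicles and lack the pores of leaky vessels. Claudins and occludin form the junction strands, and ZO-1 ties them to the cytoskeleton. Pericytes, Müller glia and astrocytes support the barrier, and VEGFA from glia and neurons loosens it when it acts on KDR. Inflammatory cytokines are known to open this barrier, which is why its genes are of interest in an eye injected with IL1A or TNF.

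The 109 libraries, 1 per whole retina, came from 64 mice aged 2 to 4 months by the series description, where the methods of the study give a wider range. WT mice of the C57BL/6J strain received PBS (31 retinas), TNF (8), IL1A (9) or IL1A+TNF (10) by intravitreal injection and were examined after 2 days in batch 1. Batch 1 also held WT retinas after PBS or TNF at day 14 (7 and 6) and day 35 (6 and 9). Batch 2 held day 2 retinas after PBS or IL1A+TNF from WT mice (5 and 6) and from Sarm1-/- mice (6 and 6). The latter are deficient in Sarm1, a NAD-cleaving enzyme of injured axons. Both sexes were present in every group. Most PBS retinas were the fellow eye of a cytokine-injected eye, so the controls share the animal, and no retina without an injection was included.

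Total counts ranged from 30014757 to 79064488 per retina. Levels are CPM, the count of a gene relative to the total count of its library after TMM scaling, and differences are log2 fold changes from limma with standard errors (SE). A gene is called differentially expressed below a false discovery rate (FDR) of 0.05, and p-values measure the spread between these retinas. Sarm1, given here in CPM without TMM scaling, lay between 28.8 and 53.2 in the 12 Sarm1-/- retinas. In the 97 WT retinas it lay between 77.5 and 135, with no overlap. The Sarm1-/- IL1A+TNF retinas 4 and 5 stood apart, lying 0.818 and 0.877 log2 units (root mean square over genes) from the median of their group, against 0.28 to 0.385 for the other 4. In WT, TNF retina 6 of day 2 lay 0.58 from its group, and its summed leukocyte markers, at 14.2 CPM, were the lowest of the TNF group. In whole retina, fewer cells of a type and less RNA per cell cannot be told apart.

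By the GENCODE M21 annotation of GRCm38, Cldn5 (ENSMUSG00000041378) lies at chr16:18776847-18778262 on the plus strand and is a single exon. Ocln (ENSMUSG00000021638) lies at chr13:100496507-100552718 and Tjp1 (ENSMUSG00000030516) at chr7:65296165-65527781, both on the minus strand. Cdh5 (ENSMUSG00000031871) lies at chr8:104101625-104144511 on the plus strand, and Pecam1 (ENSMUSG00000020717) at chr11:106654217-106750628 on the minus strand. Mfsd2a (ENSMUSG00000028655) lies at chr4:122946850-122961188 and Plvap (ENSMUSG00000034845) at chr8:71497765-71511752, both on the minus strand. Vegfa (ENSMUSG00000023951) lies at chr17:46016993-46032369, Angpt2 (ENSMUSG00000031465) at chr8:18690263-18741562 and Kdr (ENSMUSG00000062960) at chr5:75932827-75978458, all on the minus strand. Plvap and Angpt2 overlap Gtpbp3 and Mcph1 on the opposite strand without shared exon bases, and the strand setting of the counting was not given in the sources used here.

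The promoters of 4 genes are shown because these genes moved in opposite directions after IL1A+TNF. The 250 bases before the start were taken from RefSeq on GRCm38.p6, read 5′ to 3′ on the strand of the gene, for Cldn5 (chr16:18776597-18776846, plus), Kdr (chr5:75978456-75978705, minus), Vegfa (chr17:46032378-46032627, minus) and Mfsd2a (chr4:122961189-122961438, minus). Capitals mark matches on either strand to the hypoxia response core ACGTG or GCGTG, the NF-κB consensus, the AP-1 site TGANTCA or the ETS core CCGGAA. These motifs were chosen with the results known. Of the 10 genes, 6 matched an entry (also Ocln and Tjp1), while Cdh5, Plvap, Pecam1 and Angpt2 did not, and of 2 Vegfa starts the one nearest the annotated gene start is shown.
Cldn5: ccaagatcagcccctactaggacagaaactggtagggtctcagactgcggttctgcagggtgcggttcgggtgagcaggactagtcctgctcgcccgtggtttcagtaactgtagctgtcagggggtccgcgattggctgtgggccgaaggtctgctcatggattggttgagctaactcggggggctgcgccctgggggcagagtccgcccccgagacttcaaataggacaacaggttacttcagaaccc
Kdr: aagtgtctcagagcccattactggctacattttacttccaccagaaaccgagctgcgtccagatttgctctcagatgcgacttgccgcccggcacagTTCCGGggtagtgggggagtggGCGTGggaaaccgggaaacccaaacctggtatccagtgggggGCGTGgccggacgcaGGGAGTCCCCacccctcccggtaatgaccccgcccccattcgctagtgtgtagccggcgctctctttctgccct
Vegfa: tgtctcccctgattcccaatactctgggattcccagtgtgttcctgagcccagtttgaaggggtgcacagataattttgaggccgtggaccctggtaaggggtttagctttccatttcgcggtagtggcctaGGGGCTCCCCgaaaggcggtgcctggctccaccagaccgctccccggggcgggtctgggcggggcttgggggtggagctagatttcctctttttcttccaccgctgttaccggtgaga
Mfsd2a: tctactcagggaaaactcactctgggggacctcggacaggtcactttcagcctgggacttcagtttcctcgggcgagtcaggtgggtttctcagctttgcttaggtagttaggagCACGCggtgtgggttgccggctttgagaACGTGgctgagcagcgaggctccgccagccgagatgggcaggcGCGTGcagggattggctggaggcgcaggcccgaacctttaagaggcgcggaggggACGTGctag

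The Cldn5 window held none of these motifs. The Kdr window held an NF-κB match at −74 to −65, an ETS core and 2 GCGTG cores, and the Vegfa window held an NF-κB match at −118 to −109. The window of the other Vegfa start held an ACGTG core at −211 to −207 and a GCGTG core at −218 to −214. That window (chr17:46025164-46025413) lies inside the annotated gene. The Mfsd2a window held 2 ACGTG and 2 GCGTG cores. Among 32851 promoter windows of the same length, 3.9% held the NF-κB consensus, 12.03% the ETS core, 16.57% ACGTG, 28.16% GCGTG and 6.75% the AP-1 site. The matches are descriptions of letters and no binding was measured.

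In WT PBS retinas at day 2, levels per kilobase of exon ranged over more than an order of magnitude. Vegfa was highest with a median of 35.6 CPM per kb (29.8 to 42.5), followed by Kdr at 27.2 (18.7 to 39.7) and Tjp1 at 27 (22.4 to 28.7). Cldn5 was at 7.87 CPM per kb, Plvap at 3.52, Pecam1 at 2.46, Cdh5 at 2.39, Mfsd2a at 1.38, Ocln at 1.3 and Angpt2 at 0.881. Tjp1 was above Cldn5 with no overlap. Every other pair of neighbours in this order overlapped, and Kdr exceeded Tjp1 in 15 of 31 retinas and Mfsd2a exceeded Ocln in 18 of 31. Vegfa, Kdr and Tjp1 are also made by retinal neurons and glia, whereas Cldn5, Cdh5, Plvap and Pecam1 are chiefly vascular.

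After IL1A+TNF for 2 days, Cldn5, Cdh5, Pecam1 and Kdr rose in WT retinas, Vegfa and Mfsd2a fell, and Ocln, Tjp1, Plvap and Angpt2 did not pass the test. Thus 6 of 10 genes were called, 4 higher and 2 lower, against 50.4% of all genes tested (24.9% higher and 25.5% lower). The share of called genes was near that background. The comparison asked what the combined cytokines did to the retina early after injection.

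**Figure D1:**
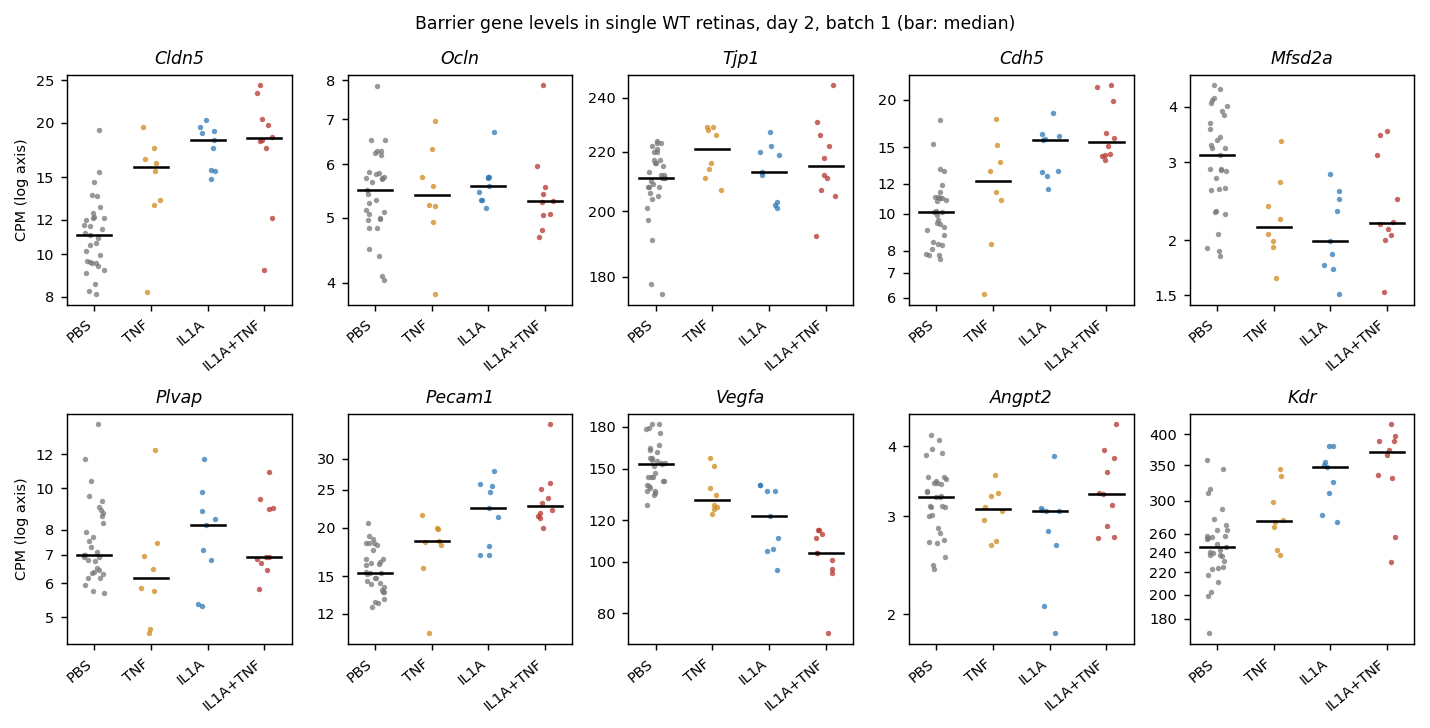
Levels of the 10 barrier genes in single WT retinas of batch 1, 2 days after PBS (31 retinas), TNF (8), IL1A (9) or IL1A+TNF (10), in CPM on log axes, with a bar at each median. All IL1A+TNF retinas lie below all PBS retinas for Vegfa, and most IL1A and IL1A+TNF retinas lie above the PBS median for Cldn5, Cdh5, Pecam1 and Kdr.

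Cldn5, the main claudin of barrier endothelium, was at 8.11 to 19.2 CPM in PBS retinas (median 11.1) and at 9.23 to 24.4 CPM after IL1A+TNF (median 18.4). The groups overlapped, but 9 of 10 treated retinas lay above the PBS median and 4 above every PBS retina. Its log2 fold change was 0.67 (SE 0.10, FDR 2.32e-07). The exception was retina 2, at 9.23 CPM, and retina 1 was the next lowest at 12.1 CPM. Without retina 2 the log2 fold change was 0.76, and leaving out each retina in turn kept it between 0.61 and 0.76.

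Ocln, which encodes the junction protein occludin, spanned 4.04 to 7.83 CPM in PBS retinas (median 5.49) and 4.68 to 7.87 after IL1A+TNF (median 5.29). Tjp1, which encodes the scaffold ZO-1, spanned 175 to 224 CPM (median 211) and 192 to 245 (median 215). For Ocln the groups overlapped, with 1 of 10 treated retinas above every PBS retina and 0 below. For Tjp1 they overlapped too, with 3 of 10 above every PBS retina. The log2 difference was −0.01 for Ocln (95% interval −0.15 to 0.13) and 0.05 for Tjp1 (95% interval −0.01 to 0.11).

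Cdh5, the cadherin of endothelial adherens junctions, was at 7.62 to 17.7 CPM after PBS (median 10.1) and 13.9 to 21.9 after IL1A+TNF (median 15.5). All 10 treated retinas lay above the PBS median, with a log2 fold change of 0.70 (SE 0.10, FDR 1.7e-08). Pecam1, an adhesion protein of endothelium that platelets and leukocytes also carry, was at 12.5 to 20.6 CPM after PBS (median 15.3) and 19.9 to 36.8 after IL1A+TNF (median 22.7). Here 9 of 10 treated retinas exceeded every PBS retina, and the log2 fold change was 0.60 (SE 0.08, FDR 1.57e-09). Retina 2 was the highest for Pecam1, at 36.8 CPM, although it was the lowest for Cldn5 and Kdr.

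Mfsd2a, which carries lysolipids inward and restrains vesicle traffic across barrier endothelium, was at 1.84 to 4.48 CPM after PBS (median 3.11) and 1.53 to 3.53 after IL1A+TNF (median 2.19). The groups overlapped widely, and 7 of 10 treated retinas lay below the PBS median. The log2 fold change was −0.35 (SE 0.13, FDR 0.0205), and without retina 2 it was −0.29 and no longer called (FDR 0.0638, range over all alternatives 0.00642 to 0.0638). Plvap, which forms the diaphragms of fenestrated vessels and reappears in leaking ones, was at 5.69 to 14.1 CPM after PBS (median 7.0) and 5.82 to 10.9 after IL1A+TNF (median 6.91). No Plvap rise was seen, and the 95% interval of its log2 difference was −0.20 to 0.26.

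Vegfa, the permeability and growth factor of vessels, was at 128 to 182 CPM in PBS retinas (median 153) and 73.3 to 115 CPM after IL1A+TNF (median 104). All 10 treated retinas lay below all 31 PBS retinas. This was a log2 fold change of −0.57 (SE 0.06, FDR 4.1e-13). Its receptor Kdr moved the other way, from 169 to 358 CPM (median 246) to 230 to 418 CPM (median 370). Of 10 treated retinas, 9 exceeded the PBS median of Kdr, with a log2 fold change of 0.47 (SE 0.08, FDR 1.43e-06). Angpt2, an antagonist of TIE2 signalling, was at 2.41 to 4.19 CPM after PBS and 2.74 to 4.38 after IL1A+TNF, with a log2 difference of 0.06 (95% interval −0.10 to 0.22).

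IL1A alone gave a similar list at day 2, again with 4 genes higher and 2 lower, against 21.4% of all genes called (12% higher and 9.45% lower). These were the same 6 genes as after IL1A+TNF, and both comparisons used the same PBS retinas. Cldn5 was at 14.9 to 20.3 CPM (median 18.3) and Cdh5 at 11.6 to 18.5 CPM (median 15.7), and all 9 IL1A retinas lay above the PBS median for both. Their log2 fold changes were 0.67 (SE 0.11, FDR 2.84e-06) for Cldn5 and 0.54 (SE 0.11, FDR 7.88e-05) for Cdh5.

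Pecam1 was at 17 to 27.9 CPM after IL1A and Kdr at 274.1 to 381.2 CPM, with log2 fold changes of 0.50 (FDR 2.5e-06) and 0.42 (FDR 8.67e-05). Mfsd2a was at 1.51 to 2.82 CPM, and Vegfa was at 96.5 to 140 CPM. All 9 retinas lay below the PBS median for both genes, and 5 lay below every PBS retina for Vegfa. The log2 fold change was −0.53 for Mfsd2a (SE 0.14, FDR 0.00389) and −0.34 for Vegfa (SE 0.06, FDR 6.54e-06). With mouse as a fixed factor, the IL1A change of Mfsd2a was −0.34 and was not called (FDR 0.16, range over all alternatives 0.000579 to 0.16). That fit kept only mice with 1 PBS and 1 treated eye, 7 of them given IL1A. Angpt2 was lower in 8 of 9 IL1A retinas than the PBS median but missed the threshold (log2 difference −0.20, FDR 0.101). Without IL1A retina 2 it was called (−0.26, FDR 0.0395), and without retina 8 it was at −0.13 (FDR 0.375), which were the ends of the range over all alternatives.

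After TNF alone none of the 10 genes was called by limma, against 0.655% of all genes. Unadjusted p-values were below 0.05 for 6 of the 10 and for 1497 of 19548 genes. DESeq2 called 1 member (Cldn5) and edgeR called 0. Cldn5 spanned 8.21 to 19.6 CPM (median 15.9), and 7 of 8 retinas lay above the PBS median with 1 above every PBS retina. The exception was retina 6, at 8.21 CPM, which was also lowest for Cdh5 (6.14 CPM) and Pecam1 (10.7 CPM). The log2 difference of Cldn5 was 0.41 (SE 0.12, FDR 0.124), and without retina 6 it was 0.51 (FDR 0.004, range over all alternatives 0.004 to 0.602).

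Of the other genes after TNF, Mfsd2a was at 1.64 to 3.35 CPM (log2 difference −0.45, FDR 0.228) and Vegfa at 123 to 157 CPM (−0.17, FDR 0.323). Kdr was at 237 to 345 CPM (0.19, FDR 0.553) and Pecam1 at 10.7 to 21.5 CPM (0.18, FDR 0.648). Without TNF retina 6, Pecam1 was at 0.28 (FDR 0.0803, range over all alternatives 0.0803 to 0.898). All of these groups overlapped the PBS retinas. The 95% intervals reached from −0.74 to −0.15 for Mfsd2a and from −0.29 to −0.05 for Vegfa. Of 10 pigment epithelium markers, 3 were called lower after TNF (median −1.41), among them Ttr (−1.61, FDR 0.0392) and Slc6a20a (−1.52, FDR 0.0367). Their sum ran from 21.8 to 187 CPM (median 50.4), against 41.9 to 451 CPM after PBS (median 125), and their part in the Mfsd2a difference was not tested.

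The eyes were also compared within mice. In the 8 mice with a PBS eye and an IL1A+TNF eye in batch 1, Vegfa and Mfsd2a were lower in the treated eye of all 8, and Cdh5 and Pecam1 were higher in all 8. Cldn5 and Kdr were higher in 7 of 8 treated eyes. In the 7 such mice given IL1A, Cldn5, Cdh5, Pecam1 and Kdr were higher and Vegfa lower in all 7, and Mfsd2a was lower in 5. In the 8 given TNF, Cldn5, Pecam1 and Kdr were higher in 7, as was Tjp1, and Mfsd2a and Angpt2 were lower in 7.

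**Figure D2:**
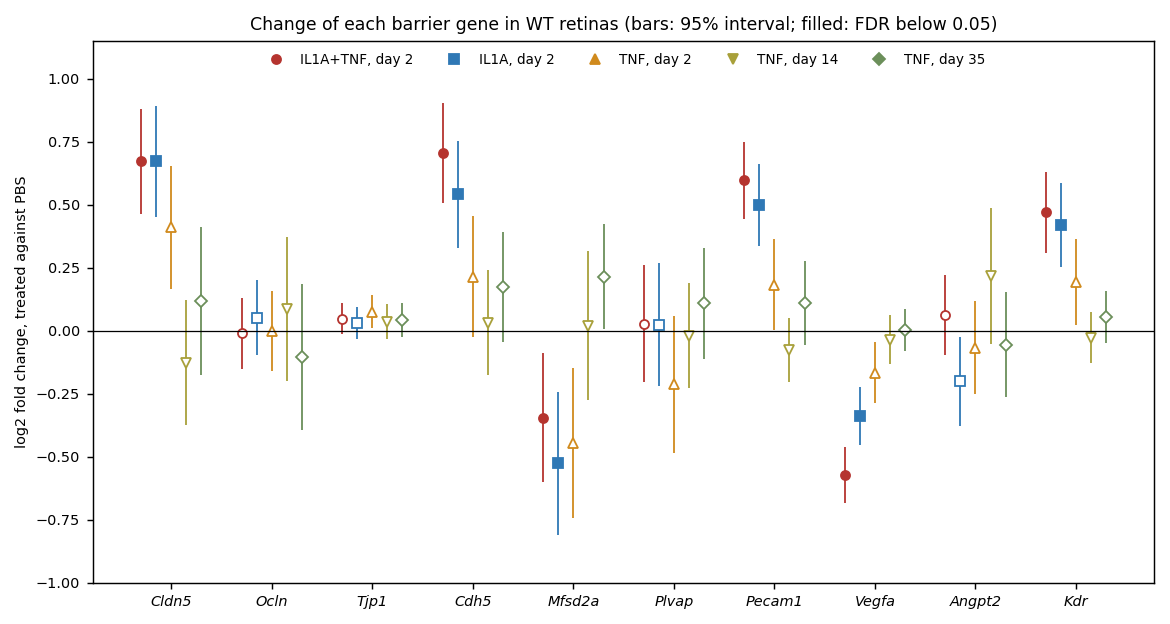
Log2 fold change of each barrier gene against PBS in WT retinas after IL1A+TNF, IL1A or TNF at day 2 and after TNF at days 14 and 35, with 95% intervals as bars and filled symbols where the FDR is below 0.05. Filled symbols appear for Cldn5, Cdh5, Mfsd2a, Pecam1, Vegfa and Kdr after IL1A+TNF and IL1A, and for no gene after TNF.

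Set against IL1A alone, IL1A+TNF differed for 1 of the 10 genes, Vegfa. This share was near the 10.1% of all genes that differed. Vegfa medians were 104 CPM after both cytokines and 122 CPM after IL1A, with overlapping groups (log2 difference −0.23, SE 0.07, FDR 0.0235). This call was lost on leaving out IL1A+TNF retina 2 or any of 4 IL1A retinas (highest FDR 0.0766, range over all alternatives 0.00952 to 0.0766). For Cldn5 the difference from IL1A was 0.00 with a 95% interval of −0.26 to 0.26.

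Set against TNF alone, 4 genes differed where 39% of all genes did. Cdh5 was higher after IL1A+TNF by 0.49 (SE 0.14, FDR 0.00301), Pecam1 by 0.41 (SE 0.10, FDR 0.00109) and Kdr by 0.28 (SE 0.10, FDR 0.0301), and Vegfa was lower (−0.40, SE 0.07, FDR 9.9e-06). The Kdr call was lost in 5 of 18 fits that each left out 1 retina, with an FDR of at most 0.0611. No member was called for a departure from the sum of the single effects, against 3.6% of all genes. Unadjusted p-values were below 0.05 for 3 members and for 3431 of 19548 genes. These members were Mfsd2a at 0.63 (FDR 0.108), Cldn5 at −0.41 (FDR 0.198) and Angpt2 at 0.33 (FDR 0.188). DESeq2 called 1 of them, Mfsd2a, at 0.67 (FDR 0.0402, range over all alternatives 0.0402 to 0.178), and edgeR called 0.

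The chiefly vascular genes Cldn5, Cdh5 and Pecam1 were not alone in their rise. Of 15 endothelial markers that are no members, 13 rose after IL1A+TNF and none fell (median 0.521, against −0.023 over all genes), 11 rose after IL1A and 1 after TNF. Their mean log2 CPM was higher than after PBS by 0.425, 0.382 and 0.081, and their summed level ran from 354 to 508 CPM after PBS and from 428 to 600 after IL1A+TNF. All 15 were detected in every retina. Among them were Ecscr, a regulator of endothelial migration (1.03, FDR 1.66e-08), and Adgrl4, an adhesion receptor of endothelium (0.73, FDR 1.7e-08).

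Relative to that endothelial mean, Cldn5 was higher after IL1A+TNF than after PBS by 0.214 on the log2 scale, Cdh5 by 0.261, Pecam1 by 0.17 and Kdr by 0.038. Mfsd2a lay 0.713 lower, Plvap 0.407 lower and Ocln 0.424 lower by the same measure. Tjp1 was at −0.378, Angpt2 at −0.372 and Vegfa at −1.0. Since the endothelial mean rose by 0.425, a gene with no change in level lies lower by about that much. After IL1A, where the endothelial mean rose by 0.382, Mfsd2a was at −0.835 and Plvap at −0.347. These are descriptions of 10 and 9 retinas against 31, with within-group SDs of 0.336 for Mfsd2a and 0.223 for Plvap in PBS retinas, and the part of cell number in them was not tested.

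Markers of other cells moved at the same time. All 10 leukocyte markers rose after IL1A+TNF (median 2.651), and their summed level was 21.4 to 199 CPM after PBS and 348 to 1260 CPM after IL1A+TNF. Ptprc, the common leukocyte antigen, was among them (2.73, FDR 8.13e-18), as was Itgb2, an integrin of leukocytes (2.58, FDR 4.23e-17). The part of leukocytes and platelets in the rise of Pecam1 was not tested. Of 8 erythrocyte and platelet markers, 2 rose, Pf4 (2.46, FDR 2.83e-10) and Itga2b (0.60, FDR 3.4e-07), both listed as platelet markers. The platelet marker Ppbp was not called. Ly6c2, S100a8, S100a9, Ccr2, Plac8, Pf4 and Ppbp were at 0 in some retinas of the series.

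Of 8 Müller glia markers, 2 rose and 4 fell after IL1A+TNF, and their sum ran from 2420 to 4650 CPM after PBS (median 3880) and from 1610 to 3540 CPM after IL1A+TNF (median 2920). Glul, the glutamine synthetase of Müller cells (−0.99, FDR 3.22e-11), and Rlbp1, a retinoid carrier (−0.70, FDR 8.71e-09), were among those that fell. Müller glia are a source of VEGFA, and their part in the fall of Vegfa was not tested. The part of glia and neurons in the rise of Kdr was not tested either. Of 10 pigment epithelium markers, 7 fell (median −1.36), among them Ttr, a carrier of retinol and thyroid hormone (−2.04, FDR 9.61e-06), and Slc6a20a, an amino acid transporter (−1.42, FDR 0.00015). The sum of these markers ran from 41.9 to 451 CPM after PBS and from 20.2 to 137 CPM after IL1A+TNF. Mfsd2a is also made by pigment epithelium, and the part of that tissue in its fall was not tested.

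The same lists moved after IL1A alone. Of 10 leukocyte markers, 9 rose (median 2.223), with a sum of 118 to 559 CPM. Of 8 Müller glia markers, 1 rose and 3 fell, among them Glul (−0.86, FDR 2.56e-08) and Rlbp1 (−0.72, FDR 4.8e-08), and their sum ran from 2190 to 3460 CPM (median 2950). Of 10 pigment epithelium markers, none rose and 2 fell, with a sum of 35.4 to 166 CPM (median 106). The part of these cells in the changes of Pecam1, Kdr, Vegfa and Mfsd2a after IL1A was not tested.

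Of 5 astrocyte markers, 3 rose and 2 fell after IL1A+TNF, with Gfap, an intermediate filament (1.44, FDR 1.15e-11), and Aldh1l1, a folate enzyme (0.74, FDR 7.47e-11), rising. Of 11 pericyte and smooth muscle markers, 3 rose and 1 fell (median 0.064). Pdgfrb, the receptor that keeps pericytes on capillaries, rose by 0.20 (FDR 0.00257), and Vtn, a matrix protein, fell by 0.26 on the log2 scale (FDR 5.37e-05).

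Other genes of the barrier moved in both directions after IL1A+TNF. Of 14 further junction genes, 6 rose and 4 fell (median 0.074). Jam2, a junctional adhesion molecule, fell by 0.35 on the log2 scale (FDR 1.2e-11), and Ctnnd1, the p120 catenin that holds cadherins at the membrane, rose by 0.14 (FDR 0.000657). Of 12 barrier transporters and receptors, 1 rose and 6 fell (median −0.147), among them the lactate carrier Slc16a1 (−0.56, FDR 1.95e-11) and the transferrin receptor Tfrc (−0.55, FDR 4.38e-11). Of 7 genes of caveolae, 5 rose and 1 fell (median 0.454). Cav1, the coat protein of caveolae, rose by 0.46 (FDR 1.03e-06) and Ehd2, which stabilizes them, by 0.54 (FDR 4.95e-06). All of these values stand beside a median of −0.023 over all genes. The counts of these and the other lists stand beside 50.4% of all genes called, 24.9% higher and 25.5% lower.

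Of 12 genes of norrin and Wnt signalling, which maintain barrier endothelium, 4 rose and 2 fell. Ndp, the ligand norrin, rose from 5.66 to 10.6 CPM (median 7.47) to 9.41 to 19.2 CPM (median 12.7), a log2 change of 0.73 (FDR 3.2e-11). Reck, a coreceptor for Wnt7 ligands, fell from a median of 22.6 to 15.3 CPM (log2 change −0.68, FDR 1.71e-10). The PBS and IL1A+TNF ranges overlapped slightly for Ndp, whereas those of Reck met at 16.9 CPM.

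Of 15 further genes of the VEGF and angiopoietin pathway, 7 rose and 2 fell after IL1A+TNF (median 0.234). Tie1, a partner of the angiopoietin receptor, rose by 0.70 (FDR 1.41e-07), and Vegfb, a ligand related to VEGFA, fell by 0.30 on the log2 scale (FDR 1.19e-06). Of 12 hypoxia response genes, none rose and 6 fell (median −0.086), a called share near the 50.4% of all genes. The mitophagy gene Bnip3 (−0.88, FDR 2.1e-12) and Pdk1, a kinase that holds pyruvate out of mitochondria (−0.74, FDR 1.02e-11), were among those that fell.

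After IL1A alone, the same lists had 4 junction genes higher and 1 lower, 2 transporters higher and 3 lower, and 5 caveolae genes higher and 1 lower. For norrin and Wnt signalling 3 were higher and 1 lower, for the VEGF pathway 6 and 2, and for hypoxia 0 and 2. Over all genes, 21.4% were called after IL1A. After TNF no gene of these 6 lists was called, against 0.655% of all genes.

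TNF alone was also followed to days 14 and 35. No member was called at either day, and limma called 0% of all genes at day 14 and 0% at day 35. At day 14, 838 genes had an unadjusted p below 0.05 and 0 members did, and at day 35, 871 genes and 1 did. Mfsd2a was at 2.24 to 3.02 CPM after PBS and 2.74 to 3.94 CPM after TNF at day 35. All 9 TNF retinas lay above the PBS median, and 4 lay above every PBS retina, but the log2 difference of 0.21 (SE 0.10) had an FDR of 0.889. In the 6 mice with both eyes at day 35, Mfsd2a was higher in the TNF eye of all 6. For Cldn5 the differences were −0.13 at day 14 (95% interval −0.38 to 0.12) and 0.12 at day 35 (95% interval −0.18 to 0.41). For Vegfa they were −0.04 (−0.13 to 0.06) and 0.00 (−0.08 to 0.09). DESeq2 and edgeR called 0 of the 10 genes at these days.

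In PBS retinas, 5 of the 10 genes differed among days 2, 14 and 35, against 36.2% of all genes by the same F test, and all 5 were lower at day 35 than at day 2. Median levels at the 3 days were 11.1, 8.53 and 6.09 CPM for Cldn5 and 10.1, 6.74 and 5.55 CPM for Cdh5. The day 35 retinas lay below all day 2 retinas for both genes. Median levels were 15.3, 11.7 and 10.3 CPM for Pecam1, and all day 35 retinas again lay below all day 2 retinas. The number of all genes with such a separation was not counted.

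The log2 change from day 2 to day 35 was −0.91 for Cldn5 (SE 0.14, FDR 4.24e-06), −0.89 for Cdh5 (SE 0.14, FDR 1.06e-06) and −0.63 for Pecam1 (SE 0.09, FDR 2.8e-07). Plvap medians were 7.0, 6.78 and 4.93 CPM (−0.62, SE 0.14, FDR 0.00231), and Kdr medians were 246, 250 and 171 CPM (−0.51, SE 0.09, FDR 4.01e-05). For Plvap and Kdr the ranges of days 2 and 35 overlapped, and the log2 changes at day 14 were −0.08 and 0.01. Vegfa medians were 153, 142 and 150 CPM, with a change of 0.00 (95% interval −0.12 to 0.12), and Ocln, Tjp1, Mfsd2a and Angpt2 were not called either.

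**Figure D3:**
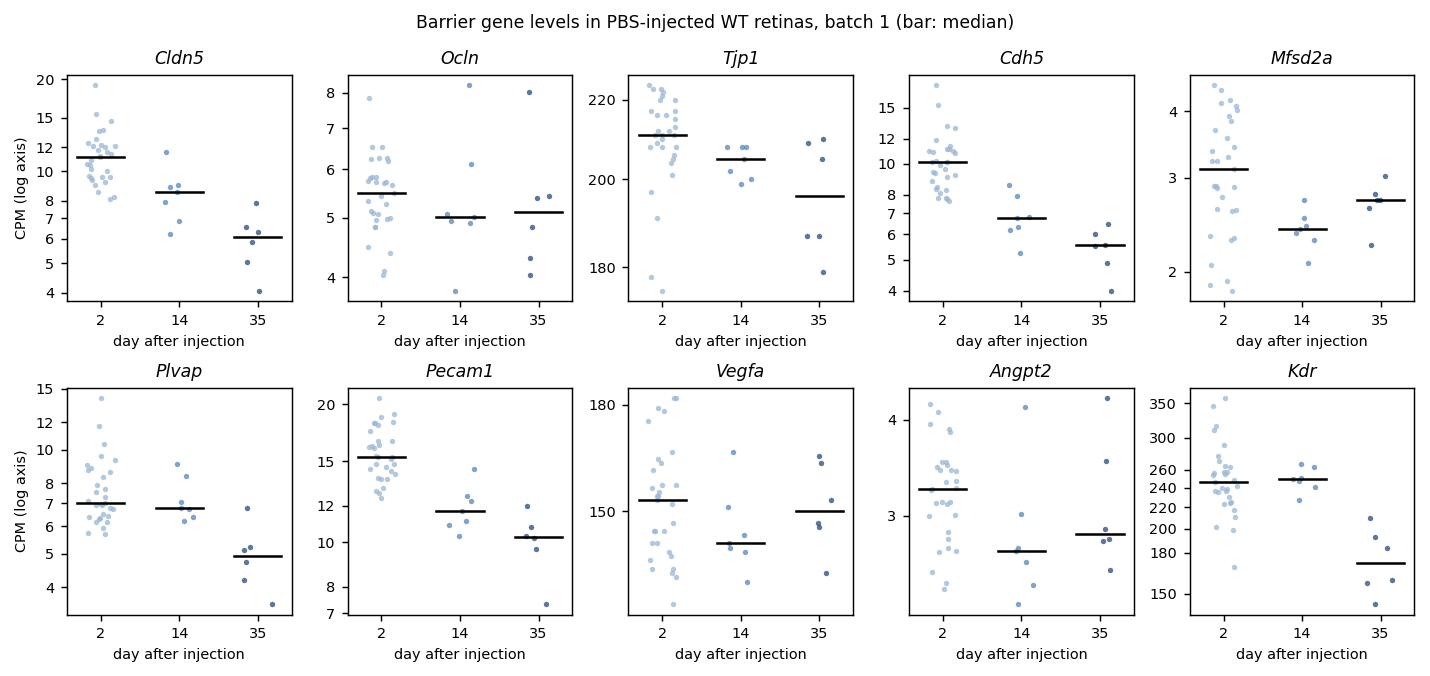
Levels of the 10 barrier genes in single PBS-injected WT retinas of batch 1 at day 2 (31 retinas), day 14 (7) and day 35 (6), in CPM on log axes, with a bar at each median. Cldn5, Cdh5 and Pecam1 are lowest at day 35, with no overlap between days 2 and 35, and the Vegfa medians lie between 142 and 153 CPM.

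All 15 endothelial markers were lower at day 35 than at day 2 (median −0.684, against 0.003 over all genes), and 9 of 10 leukocyte markers were (median −3.07). The sum of endothelial markers ran from 354 to 508 CPM at day 2, from 268 to 313 at day 14 and from 283 to 300 at day 35, and the leukocyte sum had medians of 66.2, 22.3 and 8.55 CPM. Their part in the changes of the members was not tested. The days came from different mice, so time since injection and other differences between these animals cannot be told apart.

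IL1A+TNF was repeated in WT mice in batch 2, with PBS levels of 11.2 to 13.3 CPM for Cldn5 and 138 to 173 CPM for Vegfa. After IL1A+TNF, the 6 retinas were at 20.2, 19.9, 14.3, 18, 21.5 and 24 CPM for Cldn5 and at 82.3, 87.1, 89.3, 90.7, 109 and 110 CPM for Vegfa. Groups did not overlap for Vegfa, Cldn5, Cdh5, Pecam1 or Kdr, in the same directions as in batch 1. How many of all genes separated in this way was not counted. With both batches in the model, the same 6 genes were called as in batch 1, against 54.8% of all genes. The log2 fold changes were 0.68 for Cldn5 (FDR 4.47e-07), 0.71 for Cdh5 (FDR 1.27e-10), 0.64 for Pecam1 (FDR 1.3e-12), 0.53 for Kdr (FDR 2.93e-07), −0.62 for Vegfa (FDR 5.84e-14) and −0.42 for Mfsd2a (FDR 0.0129).

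In a fit of batch 2 alone, with the Sarm1-/- retinas sharing the estimate of spread, Cldn5 kept its size (0.69) but had an FDR of 0.112 (range over all alternatives 6.07e-09 to 0.112). Mfsd2a was at −0.61 with an FDR of 0.28 (range 0.007 to 0.28). In the 5 mice of batch 2 with both eyes, Cldn5, Cdh5, Pecam1 and Kdr were higher and Vegfa and Mfsd2a lower in the treated eye of all 5.

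After PBS, no barrier gene passed the test between Sarm1-/- and WT retinas, against 0.0397% of all genes (8 genes). The count was 0 by limma, edgeR and DESeq2, and 0 members had an unadjusted p below 0.05, where 984 of 20154 genes did. Cldn5 was at 9.57 to 14.6 CPM in Sarm1-/- and 11.2 to 13.3 CPM in WT retinas of batch 2, and Vegfa at 148 to 193 and 138 to 173 CPM. The 95% interval of the genotype difference was −0.43 to 0.34 for Cldn5 and −0.11 to 0.32 for Vegfa.

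After IL1A+TNF the Sarm1-/- retinas split, and the members are given retina by retina. Cldn5 was at 19, 19.9, 15.9 and 18.3 CPM in retinas 1, 2, 3 and 6, and at 5.49 and 3.76 CPM in retinas 4 and 5. Their own PBS eyes were at 9.57 to 14.6 CPM, so 4 retinas exceeded and 2 fell below every PBS eye of the genotype. Kdr followed Cldn5, with 295, 367, 312 and 293 CPM in those 4 and 133 and 95 CPM in retinas 4 and 5.

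Vegfa was at 140, 104, 111 and 144 CPM in the same 4 retinas and at 183 and 267 CPM in retinas 4 and 5, where PBS eyes spanned 148 to 193 CPM. Mfsd2a was at 2.59, 1.88, 1.28 and 3.59 CPM in the 4 and at 5.48 and 9.6 CPM in retinas 4 and 5. Thus 4 retinas lay below and 1 above the PBS range for Vegfa, and retina 4 lay within it. Ocln was at 5.49, 5.48, 4.63 and 5.86 CPM in the 4 and at 2.49 and 3.8 CPM in retinas 4 and 5. Pecam1 did not split this way, with 22.9, 26, 32.9 and 20.9 CPM against 45.2 and 28.2, and Tjp1 lay between 213 and 219 CPM in all 6. Cdh5 did not fall in retinas 4 and 5 either, with 14.5, 14.8, 21 and 15.1 CPM against 31 and 17.5. Plvap was at 9.11, 7.94, 8.84 and 8.17 CPM against 7.28 and 6.39. Angpt2 was at 2.87, 2.61, 3.85 and 3.35 CPM against 7.37 and 4.32.

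**Figure D4:**
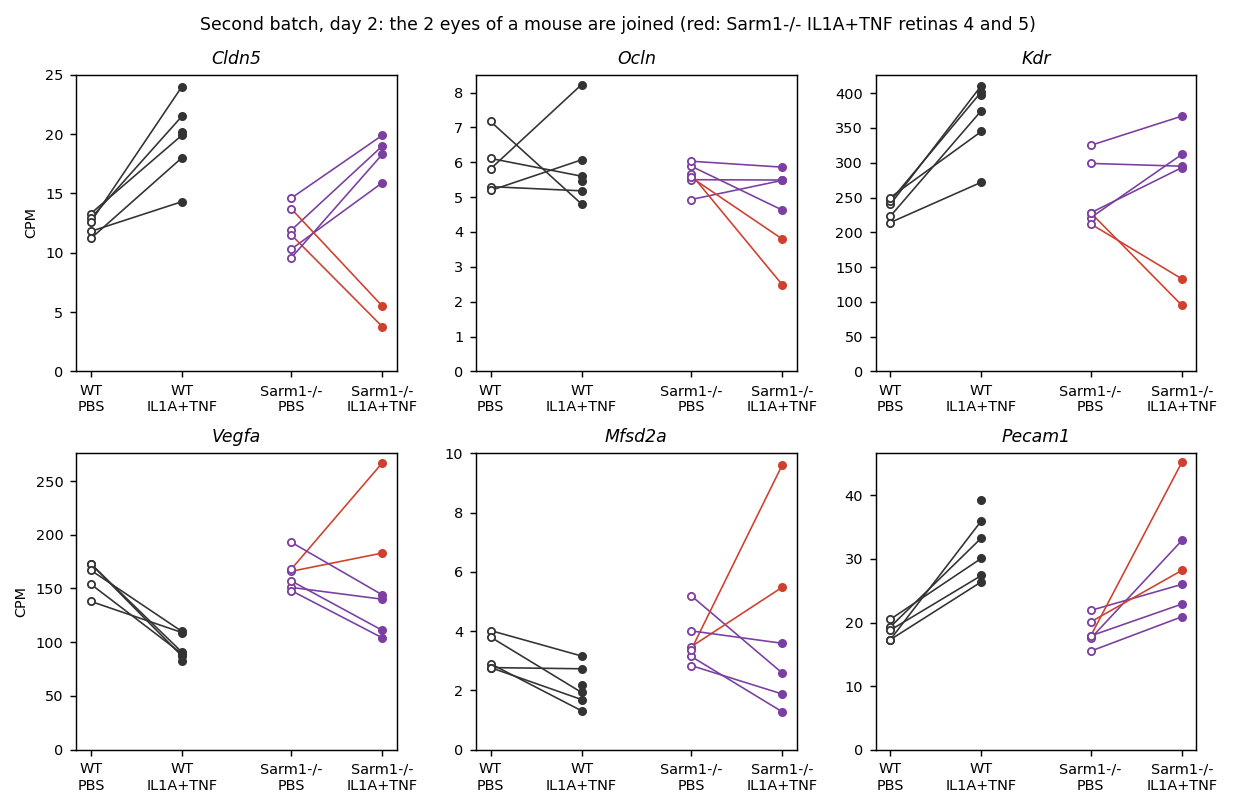
CPM of 6 barrier genes in batch 2 at day 2, with open circles for PBS eyes, filled circles for IL1A+TNF eyes and lines joining the eyes of a mouse (1 WT treated retina has no PBS partner). Red marks Sarm1-/- IL1A+TNF retinas 4 and 5, which lie below their PBS eyes for Cldn5 and Kdr and above them for Vegfa and Mfsd2a.

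With all 6 retinas, IL1A+TNF against PBS in Sarm1-/- mice gave 3 called members, against 43.5% of all genes. Pecam1 was higher (0.65, SE 0.12, FDR 1.26e-05), Cdh5 was higher (0.36, SE 0.15, FDR 0.0432) and Ocln was lower (−0.30, SE 0.13, FDR 0.0415). Cldn5 had a log2 difference of 0.01 (SE 0.21) and Vegfa of −0.10 (SE 0.12). Without retinas 4 and 5, 4 members were called against 13% of genes. These were Cldn5 (0.61, SE 0.16, FDR 0.00738), Pecam1 (0.49, SE 0.12, FDR 0.00402), Vegfa (−0.42, SE 0.10, FDR 0.00303) and Mfsd2a (−0.76, SE 0.22, FDR 0.0158), while Ocln (−0.06), Cdh5 (0.19) and Kdr (0.32, FDR 0.114) were not.

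Between genotypes after IL1A+TNF, 5 members were called with all retinas, against 14.8% of all genes. Cldn5 (−0.72, SE 0.19, FDR 0.00724), Kdr (−0.63, SE 0.15, FDR 0.00332), Plvap (−0.49, SE 0.15, FDR 0.0186) and Ocln (−0.39, SE 0.12, FDR 0.0176) were lower in Sarm1-/- retinas, and Vegfa (0.62, SE 0.11, FDR 0.000212) was higher. Without retinas 4 and 5 no member was called by limma, against 0.898% of genes. In that fit 4 members (Cdh5, Plvap, Pecam1 and Vegfa) had an unadjusted p below 0.05. The share of all genes with such a p is not given here, so this count is not read as a result about the members. The difference was then −0.10 for Cldn5 (95% interval −0.40 to 0.20), −0.17 for Kdr (−0.43 to 0.09) and 0.31 for Vegfa (0.12 to 0.50, FDR 0.0928). It was −0.13 for Ocln (FDR 0.646) and −0.06 for Mfsd2a (FDR 0.93). Plvap changed little in size, at −0.41 (−0.75 to −0.08, FDR 0.215). Cdh5 and Pecam1 lay further from 0 than with all retinas, Cdh5 at −0.50 (FDR 0.0692) against −0.34 (FDR 0.0695), and Pecam1 at −0.25 (FDR 0.282) against −0.10 (FDR 0.586). With all retinas, edgeR called 3 members (Kdr, Vegfa and Mfsd2a) and DESeq2 called 6, the 5 and Mfsd2a (0.82, FDR 0.0109, range over all alternatives 0.00543 to 0.979). In batch 2 alone no member was called, with Vegfa at 0.69 (FDR 0.0531, range over all alternatives 3.95e-07 to 0.0983).

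The test of the genotype difference in response called Vegfa (0.52, SE 0.13, FDR 0.0133) and Kdr (−0.67, SE 0.18, FDR 0.018), against 8.75% of all genes. Cldn5 was at −0.68 (SE 0.24, FDR 0.0559). Without retinas 4 and 5, Vegfa was at 0.20 (FDR 0.441), Kdr at −0.20 (FDR 0.603) and Cldn5 at −0.05 (FDR 0.938). No gene of the 20479 tested was then called, although 2579 had an unadjusted p below 0.05. In batch 2 alone with all retinas, Vegfa was at 0.67 and Kdr at −0.83 and neither was called.

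Some marker lists set retinas 4 and 5 apart and others did not. Their summed leukocyte markers, at 851 and 772 CPM, lay above the 250 to 501 CPM of the other 4 Sarm1-/- IL1A+TNF retinas, and their summed Müller glia markers, at 1320 and 1700 CPM, lay below 2030 to 3230 CPM. Summed erythrocyte and platelet markers were 122 and 74.7 CPM against 26.1 to 92.8, and pigment epithelium markers were 92.7 and 222 against 29.9 to 127. Sums over pericyte markers (680 and 628 against 563 to 890) and astrocyte markers (246 and 271 against 160 to 297) lay within the range of the others, although Vtn alone makes up most of the pericyte sum, with a median of 663 of 875 CPM in WT PBS retinas of day 2. For endothelial markers retina 4 lay within it, at 490 CPM, and retina 5 below it, at 407 against 447 to 519 CPM. Podxl alone makes up most of the endothelial sum, with a median of 314 of 418 CPM in WT PBS retinas of day 2. The mean log2 CPM of the 15 endothelial markers had an SD of 0.377 in the Sarm1-/- IL1A+TNF group, against 0.145 in Sarm1-/- PBS retinas. With all 6 retinas, 10 of 15 endothelial markers were called lower in Sarm1-/- than in WT after IL1A+TNF (median −0.517, against −0.001 over all genes), 7 of 11 pericyte markers (median −0.686) and 4 of 8 Müller glia markers (median −0.42). Without retinas 4 and 5, 0 of each list were called, with medians of −0.292, −0.184 and −0.072 (0.007 over all genes). Against PBS in Sarm1-/- mice, 7 of 11 pericyte markers were called lower after IL1A+TNF (median −0.927), and 0 without those retinas (median −0.245). Both outlying retinas were from female mice, as was retina 3, and the part of these cell types in the genotype results was not tested.

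Across the 31 WT PBS retinas of day 2, some members varied together. Pearson correlations of log2 CPM were 0.715 between Cdh5 and Pecam1, 0.643 between Cdh5 and Plvap and 0.564 between Cldn5 and Pecam1. Vegfa ran opposite to Cdh5 (−0.503) and Pecam1 (−0.491), and Kdr ran with Tjp1 (0.521) and opposite to Mfsd2a (−0.505). The retinas share a batch and range in depth, and these values are descriptions. Among 15041 genes, Tjp1 was most like Fzd3 (r = 0.917), Prrc2b and Atp7a, and Cdh5 was most like Gsta4 (0.895), Grn and Cd38. Plvap was most like Ano6 (0.845), Myo1d and Nrp1, and Vegfa was most like Gmcl1 (0.821), Noct and Pabpn1. Kdr was most like Rassf4 (0.781), Tril and Cav1, and Pecam1 was most like Arhgdib (0.771), Otulinl and Lcp1. For Cldn5 the leading genes were Chmp1a (0.739), AU021092 and C030014I23Rik. They were Irak2 (0.679), Tcn2 and Ptk2b for Ocln, Cd36 (0.675), Cdc25c and Ltbp4 for Angpt2, and Gpr4 (0.562), Fxr2 and Gm10288 for Mfsd2a.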

How the data were processed

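RNA of 109 mouse retinas was analysed from gene counts. The deposited counts are whole reads per gene, which the authors made by aligning reads with STAR 2.7.9a to mm10 and counting them with featureCounts of Subread 2.0.1, per their processing notes. The annotation release and the strand setting are not given in the sources used here. The deposited sample table repeats the labels and was used for nothing else. Of 37315 gene IDs, 35533 matched GENCODE M21.

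Groups came from the labels, with the day taken from the time tag, since a harvest text names 2 days for all retinas. Counts were filtered (minimum count 10, total 15, proportion 0.7, large group size 10), scaled by TMM and tested with limma 3.58.1 (voom) and edgeR 4.0.16 in R 4.3.3. Sex was a term, batch too where 2 batches were used, and mouse was a random block by duplicateCorrelation (2 rounds, statmod 1.5.0). A moderated F test without the block compared the PBS groups over time. FDR is by Benjamini and Hochberg over all genes tested. Log2 CPM for correlations used a prior count of 2. For the endothelial mean and the members relative to it, a small constant was added to the CPM before the logarithm. Fits held 58 retinas and 19548 genes (WT of batch 1, day 2), 13 and 18023 (day 14), 15 and 17821 (day 35), 44 and 19372 (PBS), and 81 and 20154 (day 2, both batches). Total counts were 30014757 to 79064488 per retina, which is the depth behind every value. Fits were also run on simulated counts drawn without a mouse effect, so these runs did not test the mouse block. Their outcome is not given here.

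Of 64 mice, 45 gave both eyes. Eyes of the same mouse deviated together with a median r of 0.0986 (−0.275 to 0.368, over 0.1 in 21 mice), against −0.00966 between mice. At day 14, 1 mouse gave 2 PBS retinas. No 2 libraries of a group were alike within sampling noise, the smallest chi-square per gene being 4.546. Alternatives were edgeR's quasi-likelihood test, DESeq2 1.42.0, mouse as a fixed block, other filters, no sex term, batch 2 alone and leaving out single retinas.

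All 10 members are named in every comparison. From each gene list, the 2 called genes with the smallest FDR after IL1A+TNF and a mean of at least 1 CPM are named, and for each member the 3 most correlated genes. Members and lists were chosen with earlier results of these data known.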

Additional observations from a re-analysis of the deposited data

Results flagged for a closer look

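In 11 of 110 tests of a gene in a group of 4 to 10 retinas, the highest or lowest retina lay far from the rest by Dixon's criterion, where chance gives about 5%. Ocln held 4 of them, all high. It was at 6.69 CPM in WT IL1A retina 6 (others 5.17 to 5.74), at 7.87 in WT IL1A+TNF retina 3 of batch 1 (4.68 to 5.97), at 8.02 in WT PBS retina 1 of day 35 (4.04 to 5.43) and at 8.23 in WT IL1A+TNF retina 5 of batch 2 (4.8 to 6.07).

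WT IL1A+TNF retina 2 of batch 1 stood out for Pecam1, at 36.8 CPM (others 19.9 to 26), and for Vegfa, at 73.3 CPM (others 95.2 to 115). Angpt2 was at 7.37 CPM in Sarm1-/- IL1A+TNF retina 4 (others 2.61 to 4.32) and at 4.16 CPM in WT PBS retina 1 of day 14 (others 2.3 to 3.02). Plvap was at 12.3 CPM in WT TNF retina 2 of day 2 (others 4.58 to 7.44) and at 6.99 CPM in Sarm1-/- PBS retina 3 (others 9.58 to 10.8). Tjp1 was at 213 CPM in Sarm1-/- IL1A+TNF retina 3 (others 217 to 219), a small difference in level.

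The response to IL1A+TNF differed between genotypes by limma's interaction test for Vegfa (0.52, FDR 0.0133) and Kdr (−0.67, FDR 0.018). Neither was called without Sarm1-/- IL1A+TNF retinas 4 and 5.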

How the results depend on the processing

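Of 3210 recomputed fold changes of members, 3097 kept their side of the threshold, 79 lost a call and 34 gained one. Among those 3097, 174 values that were not called changed sign, whereas 0 called values did. Values without Sarm1-/- IL1A+TNF retinas 4 and 5 were added after seeing the data.

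For TNF at day 2 (128 genes, 0 members), edgeR called 242 genes, DESeq2 268 and 1 member, and a fit of all batch 1 retinas 245. For the departure from the sum (703 genes, 0 members), DESeq2 called 1102 genes and 1 member, and no filter gave 422 genes. For IL1A+TNF in Sarm1-/- (8768 genes, 3 members), edgeR, DESeq2, no filter and batch 2 alone each called 1 member. Leaving out retinas 4 and 5 gave 2655 genes, or 940 in batch 2 alone. For Sarm1-/- against WT after IL1A+TNF (2988 genes, 5 members), edgeR called 1195 genes and 3 members, DESeq2 1600 genes, and batch 2 alone 129 genes and 0 members. Without retinas 4 and 5 it was 184 genes and 0 members, or 60 and 0 in batch 2 alone. For the interaction (1763 genes, 2 members), edgeR called 181 genes and 1 member and DESeq2 443 and 1, while batch 2 alone, leaving out retinas 4 and 5, and both together each gave 0 genes and 0 members. Batch 2 alone gave 4110 genes for WT IL1A+TNF (11043 with both batches) and 2 between genotypes after PBS (8 with both). The causes were not tested.

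With mouse as a fixed replicate block, IL1A called 2116 genes (4193 without), TNF 21 at day 2 and 2 at day 35. Among members it ended the calls of Mfsd2a after IL1A (FDR 0.16) and Ocln after IL1A+TNF in Sarm1-/- (FDR 0.0856), added Angpt2 in the latter (0.27, FDR 0.0376), and changed no other call of a member.

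Leaving out each retina gave 20 (without TNF retina 7) to 431 genes (without TNF retina 6) and 0 to 1 members for TNF, 1318 to 2986 genes and 0 to 2 members for IL1A+TNF against IL1A, and 383 to 1402 genes for the departure from the sum. In Sarm1-/- it gave 1 to 3 members after IL1A+TNF. Between genotypes after IL1A+TNF it gave 263 (without Sarm1-/- retina 4) to 4120 genes and 1 (without retina 5) to 6 members, and for the interaction 13 (without retina 4) to 2963 genes and 0 to 3 members.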
